A study of Mus musculus with 8 samples.

Results

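Interferon-stimulated genes are the genes that a cell switches on after interferon reaches its receptor. The set described here holds 58 such genes, listed by symbol as effectors of the response: the ISG15 modifier system, the IFIT, OAS and GTPase families, induced transcription factors, restriction factors, RNA enzymes and chemokines. A gene was followed if at least 1 probe carried a RefSeq accession that maps to its symbol, which held for 54 of the 58. No probe of Oas1b, Mx1, Mx2 or Ddx60 was mapped. Oas3, Slfn2 and Epsti1 had probes but were not well above background on both arrays of any group, so 51 genes were tested, out of 24633 genes tested on the array.

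RNA was measured on 8 one-colour arrays of motor neuron cultures grown from male mouse embryonic stem cells; the line carries Hb9-GFP, a reporter of motor neurons. Control cells and cells with a Litchi knockout were each sampled on day 7 and day 9, and every group had 2 arrays. All groups had received retinoic acid and Shh from day 2 to day 5, were dissociated from embryoid bodies into single cells on day 5, and were kept in GDNF until sampling. The labels do not say how many knockout clones were used, nor whether replicates came from different dishes, so a p-value here covers only the spread between 2 such samples, which can be technical. Litchi was named in 0 lines of the gene table used to name probes, so its level in knockout cells was not analysed here.

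Type I interferons are secreted proteins that bind a receptor found on nearly all cell types, neurons included. The receptor's kinases JAK1 and TYK2 then activate a complex that holds STAT2 and IRF9 and binds a DNA element called the interferon-stimulated response element upstream of its targets. Interferon gamma acts through another receptor, on an element called the gamma-activated site, and the target genes of both routes overlap. Neurons carry the type I receptor and can respond to interferon themselves.

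The sequence that ties many of these genes together lies just before their start. RefSeq promoter entries on the build GRCm38.p6 were found for 45 of the 54 genes with a probe. Within the 250 bases before the start, the letters GAAANNGAAA, which spell the core of the response element on either strand, occurred in 23 of the 45 genes, or 51.1%, against 3.46% of all 27025 genes in the table. The letters TTCNNNGAA, the core of the gamma-activated site, which read the same on both strands, occurred in 10 of the 45 genes, or 22.2%, against 8.13% of all genes; the 2 patterns were searched separately and may overlap. The match nearest the start began between 12 and 222 bases before it, with a median of 64 bases, and 20 of the 23 genes had it within 150 bases. A match describes the letters and not a bound site, and a gene without one says only that these letters are not in this window.

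The upstream stretches of 6 genes are shown because these genes had the largest mean knockout effect among those holding a match. Capitals mark every match to GAAANNGAAA on either strand, and each stretch runs in the gene's own direction and ends at its start. Tgtp2 lies at chr11:49064213-49064462 on the minus strand, Trim30d at chr7:104507850-104508099 and Trim30a at chr7:104465194-104465443, both on the minus strand, and Ifit3 at chr19:34583279-34583528, Ifit3b at chr19:34607707-34607956 and Ifit1 at chr19:34640639-34640888, all on the plus strand.
Tgtp2: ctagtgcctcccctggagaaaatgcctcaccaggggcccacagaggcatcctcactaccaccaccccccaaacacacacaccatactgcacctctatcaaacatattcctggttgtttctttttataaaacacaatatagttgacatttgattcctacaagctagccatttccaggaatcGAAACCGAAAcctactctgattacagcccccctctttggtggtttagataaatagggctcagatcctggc
Trim30d: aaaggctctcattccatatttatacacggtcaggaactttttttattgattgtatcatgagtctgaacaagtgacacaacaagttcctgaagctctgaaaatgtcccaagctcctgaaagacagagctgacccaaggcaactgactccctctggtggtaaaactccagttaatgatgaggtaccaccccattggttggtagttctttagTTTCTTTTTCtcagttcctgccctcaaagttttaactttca
Trim30a: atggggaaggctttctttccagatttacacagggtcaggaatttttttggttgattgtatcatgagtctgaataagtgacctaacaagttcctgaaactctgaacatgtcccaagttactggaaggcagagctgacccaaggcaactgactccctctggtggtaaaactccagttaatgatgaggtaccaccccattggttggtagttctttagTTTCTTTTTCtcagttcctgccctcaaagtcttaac
Ifit3: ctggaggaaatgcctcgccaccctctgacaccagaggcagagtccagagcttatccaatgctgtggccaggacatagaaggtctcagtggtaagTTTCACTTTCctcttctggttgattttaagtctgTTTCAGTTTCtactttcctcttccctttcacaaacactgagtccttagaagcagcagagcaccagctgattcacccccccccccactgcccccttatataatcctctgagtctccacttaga
Ifit3b: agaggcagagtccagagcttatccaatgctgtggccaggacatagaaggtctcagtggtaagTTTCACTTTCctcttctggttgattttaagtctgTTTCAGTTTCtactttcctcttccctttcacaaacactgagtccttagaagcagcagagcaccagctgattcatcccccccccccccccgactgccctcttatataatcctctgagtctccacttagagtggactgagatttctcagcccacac
Ifit1: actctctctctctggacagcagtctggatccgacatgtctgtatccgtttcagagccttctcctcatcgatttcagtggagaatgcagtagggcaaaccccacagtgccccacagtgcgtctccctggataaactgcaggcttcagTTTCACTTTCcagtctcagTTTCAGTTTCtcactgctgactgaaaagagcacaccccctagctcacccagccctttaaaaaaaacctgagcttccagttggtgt
Ifit3 and Ifit3b shared an unbroken run of 169 identical letters out of 250, and Trim30a and Trim30d one of 118, whereas the longest run shared by Ifit1 and Ifit3 was 13 letters. The probes of such close copies, and those of Tgtp1 and Tgtp2 and of Oas1a and Oas1g, may bind each other's RNA, so their values are not independent. Ifit1, Ifit3 and Ifit3b each hold 2 matches, and the Tgtp2, Trim30a and Trim30d stretches hold 1 each. Among tested genes with a promoter entry, the median of the mean knockout effect was 1.89 on the log2 scale in the 22 with a match and 1.32 in the 20 without one, a description with no test.

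Values below are log2 intensities relative to the 75th percentile of the same array, so that 1 unit is a doubling, and they may be compared between arrays for 1 gene but not between genes. The 75th percentile ran from 649 to 1691 intensity units, the share of spots well above background from 55.9% to 67.9%, 0 spots were saturated, and replicate 1 was the brighter array in each of the 4 groups. The 6 motor neuron markers followed (Isl1, Isl2, Lhx3, Chat, Slc18a3 and Slc5a7) were well above background on all 8 arrays, as were the 6 pan-neuronal genes. A change is given with its standard error (SE) from limma, fitted on all 8 arrays with a two-sided test, and a gene is called at a Benjamini-Hochberg adjusted p under 0.05 over all genes tested.

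The 2 arrays of control day 9 stood apart from each other in these genes before any comparison was made. On replicate 2 the 51 genes were higher than on replicate 1 in 49 cases and by a median of 1.44, or 2.71-fold, and 37 of them differed by over 1 log2 unit. Over all genes the median difference between the same arrays was 0.01, and 2.16% of genes were over 1 unit higher on replicate 2. The gap was not particular to this set. The median of 13 genes of MHC class I antigen presentation was also higher on replicate 2, as given below. In the other groups the median of the 51 genes was lower on replicate 2, by 0.56 in control day 7, 0.29 in knockout day 7 and 0.37 in knockout day 9. The medians of the 51 genes in comparisons that use control day 9 are therefore given with and without each of its arrays. Other counts and medians that use it are given so only in part.

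**Figure D1:**
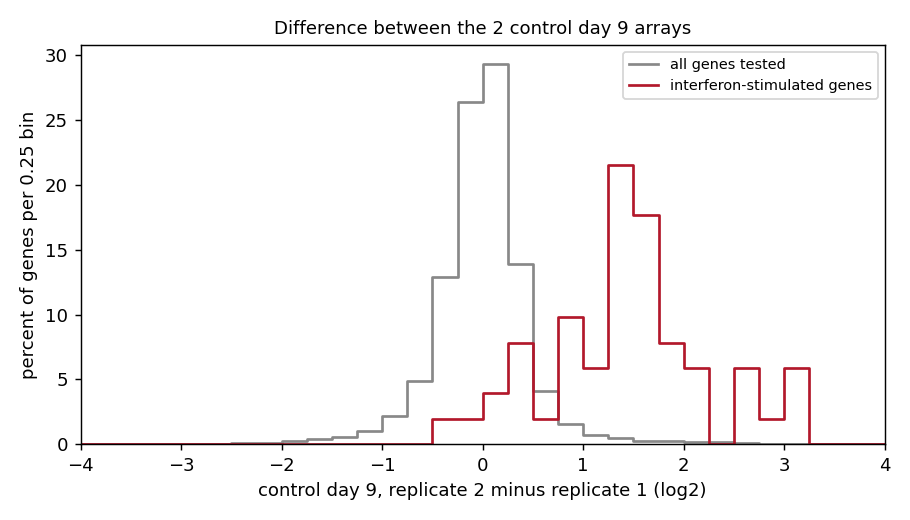
Log2 difference between replicate 2 and replicate 1 of control day 9 (x axis) as the percent of genes in bins of 0.25 (y axis), for all genes tested in grey and the 51 interferon-stimulated genes in red. The grey line centres near 0 with a median of 0.01, and the red line lies to its right with a median of 1.44.

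Most of the 51 genes followed a common profile over the 8 arrays. Relative to each gene's own mean, the median gene stood at -2.03 and -2.66 on the control day 7 arrays (replicates 1 and 2), at 0.29 and 0.01 on knockout day 7, at -0.15 and 1.43 on control day 9, and at 1.63 and 1.27 on knockout day 9. In 49 of the 51 genes the lowest array was a control day 7 array, and in 37 the highest was a knockout day 9 array. The lowest and highest arrays were not counted over all genes. Control day 9 replicate 1 lay near the knockout day 7 level, a median of -0.28 from its mean, and replicate 2 near the knockout day 9 level, a median of -0.10 from its mean. All medians of all genes on the same arrays lay between -0.09 and 0.10.

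Each gene's likeness to the median profile of the other 50 was described by Pearson's r over the 8 arrays, which share 4 groups and are not 8 independent conditions. The median r was 0.985 and 44 of the 51 genes had an r over 0.9. Gbp7 (r 0.998) and Ifit1 (r 0.998) lay closest to the common profile. Sp100 (r -0.68) and Ccl5 (r -0.07) were the only 2 genes with an r under 0.5, and Slfn8, Irf1 and Cxcl10 had an r of 0.64, 0.65 and 0.87.

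**Figure D2:**
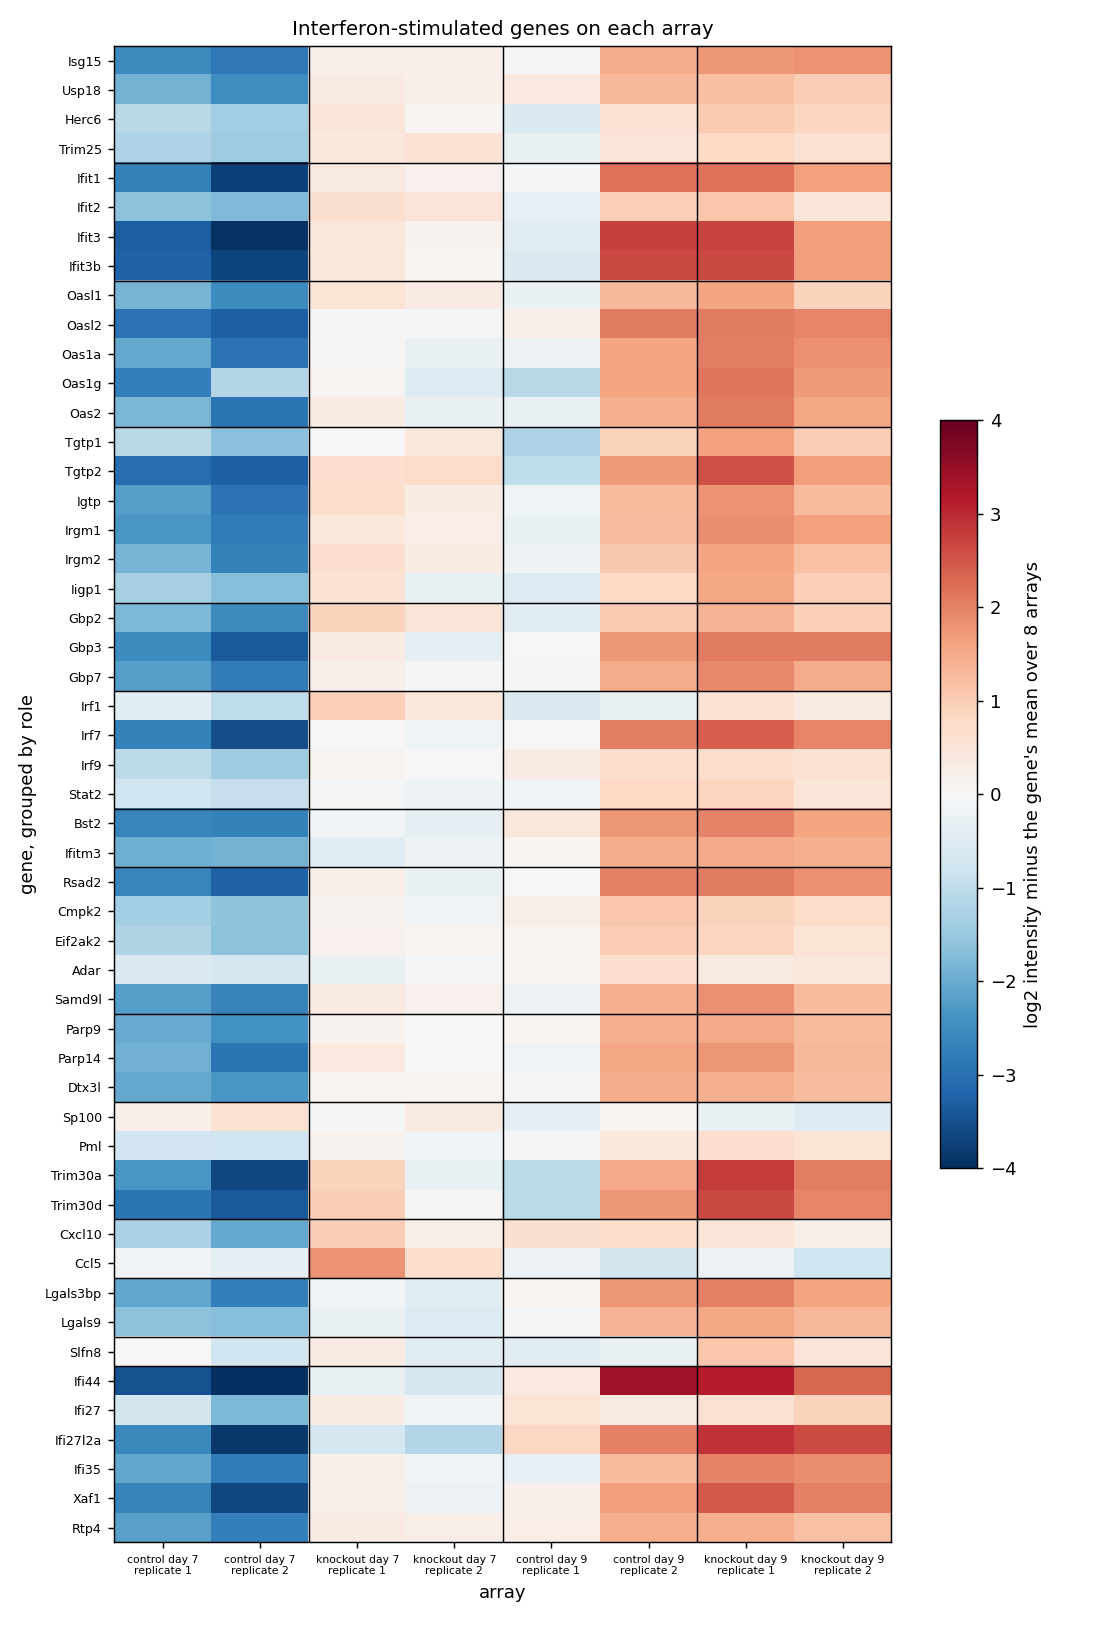
Log2 intensity of the 51 genes (y axis, grouped by role) on the 8 arrays (x axis), relative to each gene's mean over the arrays, with blue for lower and red for higher and colours saturating at 4 units. The control day 7 columns are blue for nearly all genes, the knockout day 9 columns and control day 9 replicate 2 are red, and Sp100, Ccl5, Irf1 and Slfn8 depart from this.

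On day 7 the question was whether loss of Litchi alters gene expression in young motor neuron cultures. The knockout arrays held more RNA of these genes than the control arrays in 50 of 51 genes. The median difference was 2.40, or 5.28-fold, against a median of -0.05 over all genes. The ranges of the 2 groups did not overlap, with knockout higher, in 49 genes (20.5% of all genes did so). No gene of the set was called at the adjusted threshold (0.0974% of all genes were called higher), although 47 of the 51 passed an unadjusted p under 0.05 (7.07% of all genes did so with knockout higher). The smallest adjusted p was 0.0601, so by limma the difference missed the threshold in all 51 genes. When either control day 9 array was left out, which does not alter the day 7 values but only the pooled spread, 28 of the 51 were called higher (0.313% of all genes). In these bulk cultures, more responding cells and more RNA per cell cannot be told apart.

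The ISG15 system, in which the ubiquitin-like protein ISG15 is joined to other proteins and USP18 removes it again, was among the most evenly measured. Usp18, which also restrains the type I receptor, read 2.03 and 1.45 on the control arrays and 4.28 and 4.13 on the knockout arrays. Both knockout arrays lay more than 2 units above both controls, a difference of 2.47 ± 0.33 (SE; limma adjusted p = 0.0601, and 0.0268 without either control day 9 array). Isg15 read 3.39 and 3.09 in control and 6.14 and 6.15 in knockout, a difference of 2.91 ± 0.46 (adjusted p = 0.0734 by limma, and 0.0128 without either control day 9 array). Herc6, the mouse ligase that attaches ISG15, differed by 1.54 ± 0.37 and Trim25, a ubiquitin ligase of the RNA sensor RIG-I, by 1.84 ± 0.27, and neither pair of groups overlapped.

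The IFIT proteins bind foreign RNA and hold back its translation, and the gaps of their genes on day 7 varied in size. Ifit3 read -1.16 and -1.81 in control against 2.59 and 2.30 in knockout, a difference of 3.93 ± 0.96, the largest of the set. Ifit1 read -1.63 and -2.67 against 1.44 and 1.25, a difference of 3.49 ± 0.71. Ifit3b differed by 3.73 ± 0.95 and Ifit2 by 2.28 ± 0.41, and in all 4 genes the groups did not overlap. The adjusted p in limma lay between 0.086 (Ifit2) and 0.128 (Ifit3b), so none of the 4 was called.

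The GTPases that act on the vacuoles of intracellular pathogens had differences that also varied in size. Tgtp2 read -0.70 and -0.90 in control and 3.02 and 3.11 in knockout, a difference of 3.87 ± 0.80. Igtp differed by 3.09 ± 0.50, Irgm1 by 2.91 ± 0.46, Irgm2 by 2.75 ± 0.47, Iigp1 by 1.66 ± 0.50 and Tgtp1 by 1.62 ± 0.66. The size depended on the probe in some of these genes. A second Iigp1 probe, well above background on 7 arrays, differed by 3.27. A second Tgtp2 probe, well above background on only 4 arrays, differed by 1.77. The guanylate-binding proteins Gbp2, Gbp3 and Gbp7, which coat the same vacuoles, differed by 2.86 ± 0.50, 2.92 ± 0.58 and 2.60 ± 0.49. In these 9 genes the knockout arrays all lay above the controls. In Tgtp1, 1 of the 2 control arrays was below background, so its difference is less certain.

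Among transcription factors, Irf7, the factor that drives interferon alpha genes, read -3.86 and -4.68 in control and -1.15 and -1.31 in knockout, a difference of 3.04 ± 0.63. The gap was smaller for the other factors: Irf1, which gamma interferon induces strongly, differed by 1.43 ± 0.26, Irf9 by 1.29 ± 0.19 and Stat2 by 0.75 ± 0.31. None was called (smallest limma adjusted p 0.0668, for Irf9), and the groups did not overlap in any of the 4.

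Other effectors covered a wide range of sizes. The OAS enzymes, which make the messenger that activates RNase L, differed by 2.37 in Oas1a, 2.40 in Oas2, 2.62 in Oasl1 and 3.02 in Oasl2. Oas1g was not well above background on both control day 7 arrays and 1 of the 2 knockout arrays, so no difference is given for it. Rsad2, the enzyme viperin that makes a chain-terminating nucleotide, differed by 2.93 ± 0.61, and Bst2, the tetherin that holds budding virus on the cell surface, by 2.45 ± 0.40. Rtp4 read 2.30 and 1.72 against 4.79 and 4.69, a difference of 2.73 ± 0.39 (limma adjusted p = 0.0668), and the chemokine gene Cxcl10 read -0.24 and -1.0 against 2.02 and 1.28, a difference of 2.27 ± 0.33 (adjusted p = 0.0668). The 2 knockout arrays of Rtp4 lay close together, whereas its control arrays and both groups of Cxcl10 were further apart. At the low end, Adar, which edits adenosine in double-stranded RNA, differed by 0.46 ± 0.21, Slfn8 by 0.33 ± 0.38 and Sp100 by -0.25 ± 0.26. A second Adar probe, well above background on all 8 arrays, differed by 1.07.

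**Figure D3:**
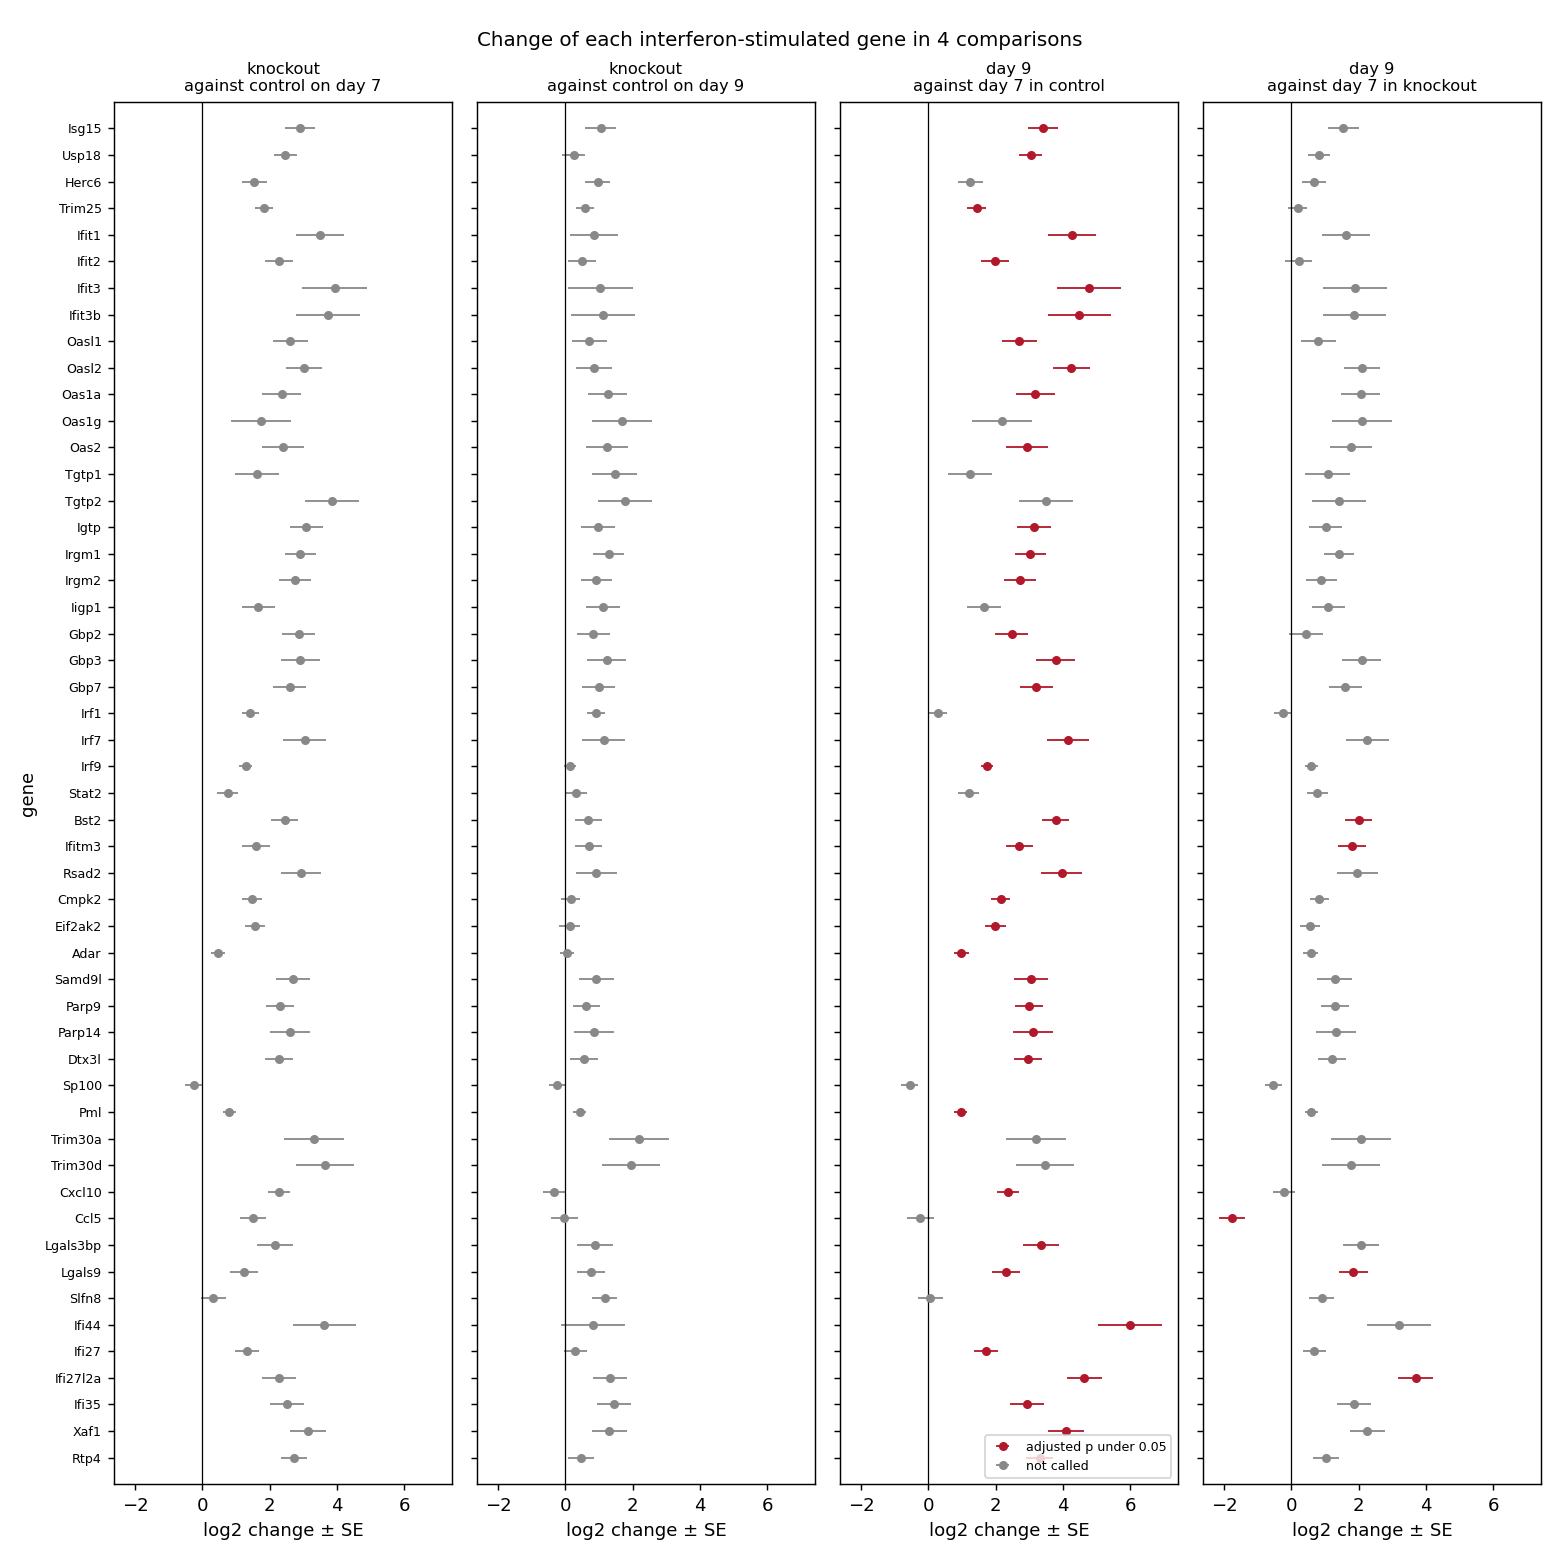
Log2 change ± SE (x axes) of the 51 genes (y axis) for the knockout effect on day 7, the knockout effect on day 9 and the step from day 7 to day 9 in each genotype, with genes at a limma adjusted p under 0.05 in red and the others in grey. The day 7 knockout panel lies to the right of 0 with none called, the day 9 knockout panel lies nearer to 0, and the control time panel holds 39 called genes.

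On day 9 the question was the same, 2 days later in culture. The median difference was 0.87, or 1.83-fold, against -0.02 over all genes, and 48 of the 51 genes were above 0. Knockout arrays lay wholly above control arrays in 21 genes (27.1% of all genes did so), and no gene of the set was called (1.5% of all genes were called higher). At an unadjusted p under 0.05, 8 of the 51 were higher (10.4% of all genes): Herc6, Irgm1, Irf1, Trim30a, Slfn8, Ifi27l2a, Ifi35 and Xaf1. The result turned on which control array was used. Without control day 9 replicate 1 the median difference was 0.10 with 0 genes called (0.0934% of all genes were called higher), and without replicate 2 it was 1.69 with 12 genes called higher (0.65% of all genes).

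The arrays show this gene by gene. Isg15 read 5.87 and 7.43 in control day 9 and 7.66 and 7.74 in knockout day 9, so that the second control array lay just under the knockout arrays and the first far below them. Ifit3 read 1.69 and 4.89 in control and 4.84 and 3.83 in knockout, and the groups overlapped. Control replicate 1 was below both knockout arrays in 48 of 51 genes, and control replicate 2 was below both in 21, above both in 12 and between them in 18. This order was not counted over all genes.

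The genes with the smallest p on day 9 were Irf1, Slfn8 and Ifi35. Irf1 read 1.21 and 1.5 in control and 2.38 and 2.15 in knockout, a difference of 0.91 ± 0.26 (limma adjusted p = 0.0961). Slfn8, a Schlafen gene, read -4.53 and -4.37 against -2.99 and -3.58, a difference of 1.17 ± 0.38 (adjusted p = 0.119). Ifi35, which encodes a partner of the adaptor NMI, read 1.52 and 3.09 against 3.81 and 3.70, a difference of 1.45 ± 0.50 (adjusted p = 0.14). The 2 control arrays were close together in Irf1 and Slfn8 and far apart in Ifi35, and none of the 3 genes was called. Without control replicate 1 or 2 in turn, the difference was 0.76 and 1.05 for Irf1, 1.09 and 1.25 for Slfn8 and 0.66 and 2.24 for Ifi35, of which the last was called (adjusted p = 0.0458 by limma).

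The Trim30 genes, whose proteins are TRIM-family regulators, had the largest differences of the set on day 9. Trim30a read -3.20 and -0.66 in control and 0.63 and -0.11 in knockout, a difference of 2.19 ± 0.89, and Trim30d differed by 1.96 ± 0.86. Neither was called, and the second control array lay much nearer to the knockout arrays than the first did. Cxcl10 went the other way, with 1.70 and 1.80 in control against 1.55 and 1.30 in knockout, a difference of -0.33 ± 0.33 whose groups did not overlap.

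Whether the knockout effect itself differed between the days was tested with the interaction term. In 49 of the 51 genes the knockout effect was lower on day 9 than on day 7, and the median of the interaction was -1.62. Without control day 9 replicate 1 the median was -2.37 with 1 gene above 0, and without replicate 2 it was -0.89 with 9 genes above 0; 0 genes of the set were called either way. No gene of the set was called (0.00406% of all genes were called lower, which is 1 gene), while 22 had an unadjusted p under 0.05 in that direction (3.33% of all genes). The smallest adjusted p in limma was 0.63 for Cxcl10, whose interaction was -2.60 ± 0.46, followed by Usp18 at -2.22 ± 0.47 and Irf9 at -1.15 ± 0.26 (adjusted p = 0.712 for both). So none of these genes was called for a difference between the days.

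Over both days together, the mean knockout effect set 4 knockout arrays against 4 controls with day held apart. This test called 39 of the 51 genes higher and 0 lower (5.48% of all genes were called higher), with a median of 1.67, or 3.17-fold, against -0.04 over all genes. The median was 1.28 without control day 9 replicate 1 and 2.08 without replicate 2. Without control day 9 replicate 1, 29 were called (1.61% of all genes), and without replicate 2, 45 were (3.89% of all genes). Leaving out 1 of the other six arrays gave from 0 called genes (without either knockout day 9 array; 1.16% of all genes were called higher without replicate 1) to 17 (without control day 7 replicate 1; 2.64% of all genes).

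By role, the mean knockout effect called all 4 genes of the ISG15 system, 4 of 5 OAS genes, 5 of 6 immunity-related GTPases, all 3 guanylate-binding proteins, 3 of 4 transcription factors and all 3 genes of the PARP9, PARP14 and DTX3L group, which act in ADP-ribosylation and ubiquitination. Both membrane factors, Bst2 and Ifitm3, were called, as were 4 of 5 nucleotide and RNA enzymes and 2 of 4 IFIT genes. Without control day 9 replicate 1 or 2 in turn, all 4 ISG15 system genes, all 3 guanylate-binding proteins and both membrane factors were called, and so were 4 of 4 IFIT genes. The OAS count went to 2 and 5 of 5, the immunity-related GTPases to 4 and 6 of 6, the transcription factors to 2 and 4 of 4, the PARP and DTX3L group to 2 and 3 of 3, and the nucleotide and RNA enzymes to 2 and 4 of 5. Among called genes Tgtp2 had the largest effect, 2.83 ± 0.57 (limma adjusted p = 0.0261). The second Tgtp2 probe, well above background on only 4 arrays, was at 1.54. Among called genes Trim30d came next with 2.80 ± 0.61 and Trim30a with 2.75 ± 0.63, each below background on 1 of the 4 control arrays. Xaf1, whose product promotes cell death, was then at 2.22 ± 0.37 and Ifit1 at 2.17 ± 0.50. The smallest adjusted p, 0.016, belonged to Irgm1, with an effect of 2.10 ± 0.32.

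The 12 genes not called in the mean effect fall into large but scattered and small effects. Ifit3 (2.49 ± 0.68, limma adjusted p = 0.0548), Ifit3b (2.42 ± 0.67, adjusted p = 0.0567) and Ifi44 (2.23 ± 0.67, adjusted p = 0.0709) had large estimates with wide errors. Stat2 was at 0.54 ± 0.22, Adar at 0.25 ± 0.15 and Sp100 at -0.25 ± 0.18. The second Adar probe was at 0.73. The other six were Oas1g, Tgtp1, Ccl5, Lgals9, Slfn8 and Ifi27.

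In control cultures most of the genes rose from day 7 to day 9. The test called 39 of 51 higher and 0 lower (4.11% of all genes were called higher), with a median of 2.95, or 7.74-fold, against -0.12 over all genes. The median was 3.66 without control day 9 replicate 1 and 2.13 without replicate 2. Day 9 arrays lay wholly above day 7 arrays in 46 genes (18.9% of all genes). Without control day 9 replicate 1, 46 genes were called (3.15% of all genes), and without replicate 2, 17 were (0.576% of all genes). Leaving out 1 of the other six arrays gave from 0 called genes (without control day 7 replicate 2; 0.0244% of all genes) to 26 (without either knockout day 7 array; 2.88% of all genes). Replicate 1 of day 9 alone was above both day 7 arrays in 46 genes and replicate 2 in 48. How many of all genes did so was not counted.

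Ifi44, an induced cytoplasmic protein, had the largest rise in control cultures: it read -3.56 and -4.82 on day 7 and 0.31 and 3.33 on day 9, a change of 6.01 ± 0.95 (limma adjusted p = 0.0213). Only 1 of its 2 day 7 arrays was well above background, and the day 9 arrays differed by 3 units. Ifit3 rose by 4.78 ± 0.96, Ifi27l2a by 4.64 ± 0.51, Ifit3b by 4.49 ± 0.95, Ifit1 by 4.26 ± 0.71, Oasl2 by 4.26 ± 0.54, Irf7 by 4.16 ± 0.63 and Xaf1 by 4.09 ± 0.53. Bst2 had the smallest p: it read 1.62 and 1.54 on day 7 and 4.72 and 6.02 on day 9, a change of 3.79 ± 0.40 (adjusted p = 0.00884), and was called without either day 9 array in turn (adjusted p = 0.00557 and 0.03). Its day 7 arrays lay close together and its day 9 arrays did not. Rsad2 rose by 3.97 ± 0.61, Gbp3 by 3.78 ± 0.58 and Isg15 by 3.41 ± 0.46.

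The 12 genes not called in control cultures included the Trim30 and Tgtp pairs, whose day 9 arrays lay far apart. Tgtp2 read 1.33 and 4.05 on control day 9 (difference 3.49 ± 0.80, limma adjusted p = 0.0518). The difference was 0.28 ± 0.26 for Irf1 and 0.06 ± 0.38 for Slfn8, with their groups overlapping. It was -0.23 ± 0.40 for Ccl5, a chemokine gene, and -0.55 ± 0.26 for Sp100, a protein of nuclear bodies. Pml, which organises the same bodies, was called with a rise of 0.96 ± 0.19 (adjusted p = 0.039).

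In knockout cultures few of the genes were called between the days. The median difference was 1.31, or 2.48-fold, and day 9 arrays lay wholly above day 7 arrays in 46 genes (22.1% of all genes). The test called 4 genes higher (4.14% of all genes) and 1 lower (4.17% of all genes). With either control day 9 array left out, 23 of the 51 were called higher (4.12% of all genes). Leaving out 1 of the other six arrays called 0 genes (without either knockout day 9 array; 0.861% of all genes were called higher without replicate 1) or 1 gene (without control day 7 replicate 1, for instance; 3.36% of all genes). The control and knockout time courses share no array, and their difference is the interaction given above.

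Ifi27l2a rose most in knockout cultures, from 1.55 and 1.09 on day 7 to 5.15 and 4.89 on day 9, a change of 3.70 ± 0.51 (limma adjusted p = 0.0112). Bst2 went from 4.16 and 3.91 to 6.25 and 5.84, a rise of 2.01 ± 0.40 (adjusted p = 0.0332). Lgals9, a galectin that regulates T cells, rose by 1.85 ± 0.42, and Ifitm3, which blocks virus fusion with endosomes, by 1.80 ± 0.41 (adjusted p = 0.0482 for both). These 4 genes were above their day 7 values on both day 9 arrays.

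Ccl5 was the 1 gene called lower, among 4 with a difference below 0. It read -1.41 and -1.65 on control day 7, 0.53 and -0.58 on knockout day 7, -1.51 and -2.01 on control day 9 and -1.50 and -2.07 on knockout day 9. Only the knockout day 7 arrays were raised, and the fall in knockout cultures was -1.76 ± 0.40 (limma adjusted p = 0.0456, and 0.0563 without either control day 9 array). Cxcl10, the other chemokine gene, was low on control day 7 alone: its difference between the days was 2.37 ± 0.33 in control (adjusted p = 0.0161) and -0.23 ± 0.33 in knockout (adjusted p = 0.697).

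The interferon genes themselves, from a list of 19 of which 10 could be tested, had another profile. On day 7, 0 were called (0.0974% of all genes were called higher), although 7 had an unadjusted p under 0.05 with knockout higher (7.07% of all genes). On day 9, 8 of the 10 were called lower in knockout (3.96% of all genes were), with a median of -1.39. When control day 9 replicate 1 was left out, 0 were called (0.162% of all genes) and the median was -1.51, and without replicate 2, 1 was (1.5% of all genes) and the median was -1.27; all 10 were below 0 in each case. Between the days in knockout cultures 8 fell (4.17% of all genes), also without either control day 9 array. In control cultures 4 rose (4.11% of all genes), and 0 were called without either array of control day 9. Ifna4 read -6.35 and -6.27 on control day 7, -2.87 and -2.80 on knockout day 7, -2.77 and -2.88 on control day 9 and -6.95 and -5.08 on knockout day 9; it was not well above background on both control day 7 arrays and 1 of the 2 knockout day 9 arrays, so its low values are only bounds. Ifna5, well above background on all 8 arrays, read -3.19 and -3.43 on control day 7, -2.36 and -2.04 on knockout day 7, -2.40 and -2.24 on control day 9 and -4.13 and -3.70 on knockout day 9. Ifna5 was thus lowest on the knockout day 9 arrays. The 2 control day 9 arrays were alike in these genes, with a median difference of 0.11 and a range from -0.14 to 0.40, where the 51 effectors differed by a median of 1.44. The ligand genes are close copies whose probes may share targets, and their part in the effectors' levels was not tested.

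**Figure D4:**
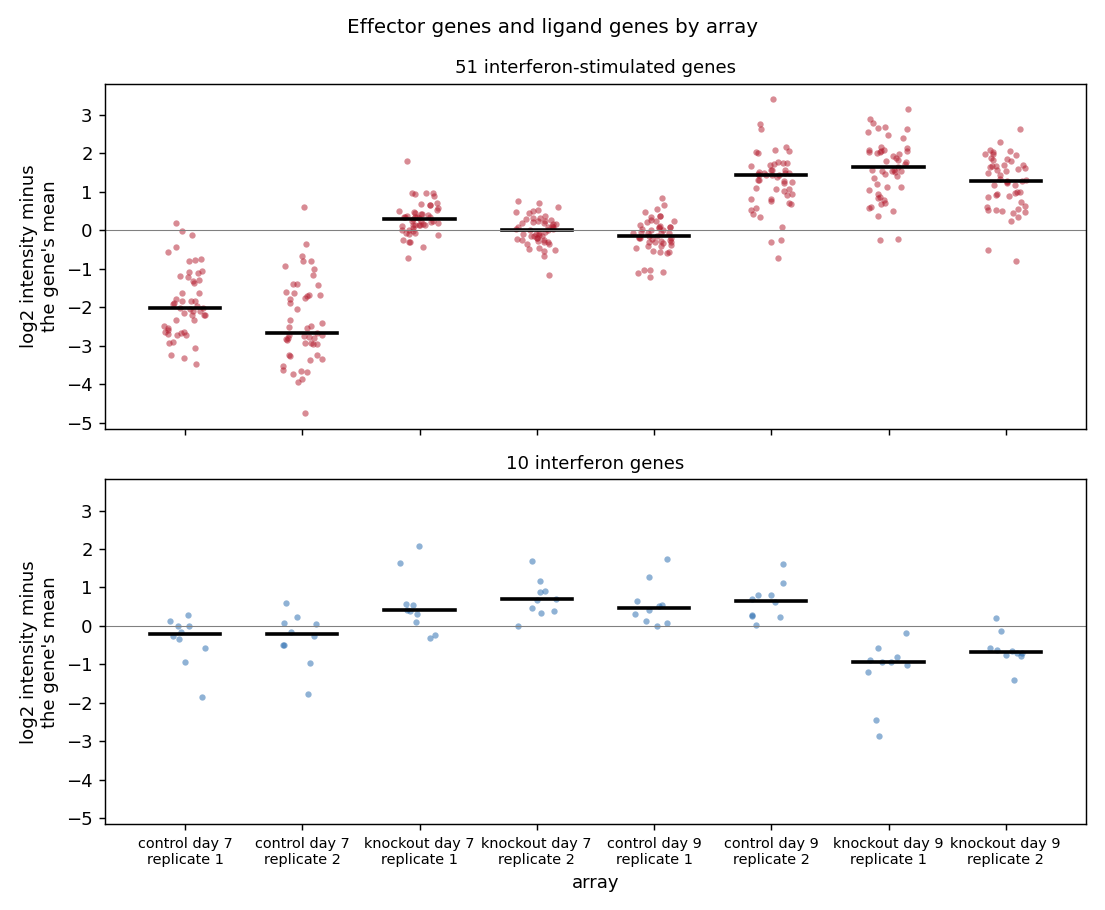
Log2 intensity relative to each gene's mean (y axes) on the 8 arrays (x axis) for the 51 interferon-stimulated genes above and the 10 tested interferon genes below, with 1 point per gene and a bar at the median. The effector genes are highest on control day 9 replicate 2 and both knockout day 9 arrays, where the interferon genes on the knockout day 9 arrays are at their lowest, with medians of -0.93 and -0.67.

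Receptors, kinases and negative regulators of the pathway had few calls. Of 9 receptor and kinase genes, Il10rb alone was called, higher on day 9 in control (1.31, limma adjusted p = 0.0431). In that comparison 4.11% of all genes were called higher. Ifnar1 kept between 2.36 and 3.04 on all 8 arrays. Of 9 negative regulators, Socs1, which blocks JAK kinases, and Trim21 were called higher in the mean knockout effect (0.97 and 1.24). In that test 5.48% of all genes were called higher. Both were also called higher between the days in control (1.15 and 2.16, with 4.11% of all genes called higher). None of these calls held in both fits that left out 1 control day 9 array.

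Sensors and antigen presentation, which interferon also induces, had calls too. Of 16 sensor and adaptor genes, 8 were called higher in the mean knockout effect (5.48% of all genes) and 3 on day 9 (1.5% of all genes), and 4 rose (4.11% of all genes) and 1 fell (3.26% of all genes) between the days in control cultures. These counts were not stable when 1 control day 9 array was left out, and the 3 calls on day 9 held in neither such fit. Of 13 genes of MHC class I presentation, 4 were called higher between the days in control, 2 in knockout (4.14% of all genes) and 1 in the mean knockout effect, or 7.69%. These counts depended on single arrays. Leaving out control day 9 replicate 1 raised the count between the days in control and lowered that in the mean effect, and leaving out replicate 2 did the opposite. The median of the mean effect in these 13 genes was 1.26, and 0.67 and 1.80 without replicate 1 or 2. None of either list was called on day 7. Relative to its own mean, the median MHC gene stood at -1.69 and -1.89 on control day 7. It stood at -0.33 and -0.50 on knockout day 7, -0.36 and 1.41 on control day 9, and 2.06 and 1.26 on knockout day 9. This list thus had a gap between the control day 9 arrays in the effectors' direction. In the 16 sensor genes the gap was smaller, with medians of -0.15 and 0.33.

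Markers of other cell types were read on the same arrays, as summed levels and as each gene's value relative to its own mean, since 1 bright probe can make up most of a sum. Of 11 leukocyte markers, 9 had a probe, and Ptprc, Cx3cr1 and Tyrobp were not well above background on both arrays of any group. The summed level of the 9 ran from 5.26 to 6.32 (log2), nearly all of it from 1 probe, Siglech, which ran from 5.18 to 6.23. Relative to their own means, the 6 tested leukocyte genes had a median of -0.15 and 0.39 on control day 7 and -0.25 and 0.15 on knockout day 7. It was 0.19 and 0.20 on control day 9 and -0.28 and -0.26 on knockout day 9. In the mean knockout effect 0 of the 6 were called higher (5.48% of all genes) and 1 lower (9.35% of all genes). With so few genes, these counts do not set the list apart from all genes.

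The 6 fibroblast genes were measured on all 8 arrays, and their summed level was 5.17 and 4.61 on control day 7, 6.09 and 5.64 on knockout day 7, 6.08 and 6.28 on control day 9 and 7.12 and 6.90 on knockout day 9. In the mean knockout effect 5 of the 6 were called higher (5.48% of all genes), and 2 and 3 without control day 9 replicate 1 or 2. Both genotypes and both days thus differed in this list in the direction of the effectors, while the 2 control day 9 arrays differed by little.

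Neuronal genes went the other way by genotype. In the mean knockout effect 5 of the 6 pan-neuronal genes were called lower (9.35% of all genes were), with a median of -0.62 and all 6 below 0; without control day 9 replicate 1 or 2, 1 and 4 were called (3.22% and 7.13% of all genes). Of the 6 motor neuron markers 3 were called lower and Lhx3 higher (5.48% of all genes were called higher), with a median of -0.81. The summed level of the motor neuron markers was 5.31 and 5.37 on control day 7, 5.20 and 5.37 on knockout day 7, 4.33 and 3.77 on control day 9 and 3.34 and 3.62 on knockout day 9. It was lower on both day 9 groups, and of the 2 control day 9 arrays it was lower on replicate 2, where the effectors were higher.

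The astrocyte and radial glia list of 4 tested genes moved with the effectors only in part. Slc1a3 and Aldh1l1 were higher on day 9 in both genotypes. Aqp4 stayed between -4.11 and -3.15 and Fabp7 between 6.88 and 7.74 over the 8 arrays. The summed level of the list, from 6.92 to 7.79, came nearly all from the Fabp7 probe. Relative to their own means, the 4 genes had a median of -0.42 and -0.44 on control day 7, -0.42 and -0.28 on knockout day 7, 0.03 and 0.52 on control day 9 and 0.45 and 0.44 on knockout day 9. Aldh1l1, a marker enzyme of astrocytes, read -0.57 and -0.60 on control day 7, -0.59 and -0.39 on knockout day 7, 1.00 and 2.28 on control day 9 and 3.71 and 2.88 on knockout day 9. It rose between the days in control (2.22 ± 0.44, limma adjusted p = 0.0374) and in knockout (3.78 ± 0.44, adjusted p = 0.00771), and its control day 9 arrays differed in the direction of the effectors' gap. On day 7 its groups overlapped, unlike those of most effectors.

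Trophoblast genes were lower in knockout, with 5 of 5 tested called lower in the mean knockout effect (9.35% of all genes were). Their summed level on control day 9 was 0.68 on replicate 1 and 2.17 on replicate 2, the same direction as the effectors' gap. The summed level of 7 stress genes stayed between 4.47 and 4.90 on all arrays. The endothelial list, again mostly 1 probe (Kdr), ran from 1.24 to 1.89. The part of these cell types in the effectors' levels was not tested.

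Of the 51 genes, 13 lie on chromosome 11 (among them Tgtp2, Igtp, Irgm1, Xaf1, Ifi35, Irf1, Slfn8 and Ccl5). On this chromosome 30.1% of all 1251 tested genes were called higher in the mean knockout effect, against 5.24% of tested genes on other chromosomes, and 9.19% against 1.36% on day 9. Of the 13 effector genes on it, 9, or 69.2%, were called higher in the mean effect, and of the 38 on other chromosomes 30, or 78.9%, were; their medians were 1.55 and 1.69. Both counts were lower without control day 9 replicate 1 and higher without replicate 2. The median of the day 9 knockout effect was 0.97 in the 13 genes and 0.84 in the 38; it was 0.39 and -0.03 without control day 9 replicate 1, and 1.69 and 1.65 without replicate 2. On day 7 the medians were 2.15 and 2.43. Over all genes of chromosome 11 the median was 0.38 on day 9 and 0.29 on day 7. The part of the chromosome in the effectors' levels was not tested.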

How the data were processed

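Cy3-labelled RNA of the 8 samples was hybridised to 1-colour Agilent arrays, all 8 on 1 slide and in 1 scan, so slide and scan could not act as batches. Spot values came from Agilent Feature Extraction, version 10.5.1 in the submitters' processing notes. The values used are the processed signal intensity of each spot, background-subtracted and detrended per the file headers. A table of log2 values of these arrays, deposited by the authors, has columns each with a median of 5.80 and sorted values equal to within 0.000987. The offset behind its baseline is not given in the sources used here, and it served as an alternative. 

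Control and outlier spots were left out and spots of 1 probe averaged, which gave 55681 probes. Each array's 75th percentile was subtracted from the log2 intensity. Probes entered the fit if both arrays of 1 or more groups had them well above background, and the brightest kept probe stood for its gene. Where a gene had more than 1 probe, their differences could vary in size. Probes were named through their RefSeq accession and a gene table of GRCm38.p6, which named 26300 probes (47.2%) for 19897 genes; 1486 RefSeq accessions had no match. The array's own positions are on mm9, and none is printed.

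limma 3.58.1 in R 4.3.3 fitted 4 group means (lmFit, eBayes, two-sided, with 4 residual and 2.53 prior degrees of freedom), and p-values were adjusted by Benjamini-Hochberg over 24633 genes. The script was tested on simulated data. With 2 arrays per group, the number of arrays limits the precision. Left out were the genes without a probe or below background, which are named in the text. The alternatives were quantile normalization, a median shift, normexp with an offset of 50, the authors' table, 2 other filters, the mean of a gene's probes, a replicate block and leaving out each array. The planned normexp input, the mean signal, is no column of the files, so the median signal was used.

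Every member with a probe may be named; the members described in full are those with the smallest p among uncalled or the largest change among called genes of each comparison. The members, the role groups and the pathway and marker lists were chosen with earlier results of these data known, so no list test was made. Some genes of the pathway and marker lists are not reported here.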

Additional observations from a re-analysis of the deposited data

How the results depend on the processing

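The count of genes called out of 51 depended most on single arrays. Leaving out 1 array at a time gave 0 to 28 called in knockout against control on day 7, 0 to 12 on day 9, 0 to 46 for day 9 against day 7 in control, 0 to 23 for day 9 against day 7 in knockout and 0 to 45 for the mean knockout effect. Without a filter on dim probes, 0 genes were called between the days in control, 0 in knockout and 0 in the mean knockout effect; the cause was not tested. Asking for 2 groups above background called 1 gene on day 7. Between the days in knockout, quantile normalization and the authors' table each called 3 genes and normexp correction 2, against 5.

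With the replicate number as a block (replicate block), 1 gene was called on day 7, 0 on day 9, 31 between the days in control, 4 in knockout, 0 in the interaction and 34 in the mean effect. Over all 24633 genes, the block raised the calls in either direction from 1814 to 2029 between the days in control. In the mean effect it raised them from 3653 to 4797. The labels do not say whether same-numbered arrays share a culture or a day of work. The correlation of replicate differences ran from -0.25 to 0.46 over the 6 pairs of groups, highest between the 2 day 7 groups. Whether the replicate number marks a batch was not tested. Of 38 values, 0 changed direction under any of the 8 other settings or the 8 fits without 1 array. These 38 had the largest called changes or the smallest p in the same data, so a reversal was unlikely from the start. Over all 51 genes, the number above 0 in knockout against control on day 9 went from 48 to 30 without control day 9 replicate 1. In the interaction it went from 2 to 9 without control day 9 replicate 2. A median shift moved the median of all genes from -0.02 to 0.19 in knockout against control on day 9 and from -0.05 to 0.08 on day 7; the effectors' medians there were 1.08 and 2.53, so they stayed above it. Signal over background limits Ifi44, Tgtp1, Trim30a, Trim30d, Slfn8 and Oas1g on control day 7.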
